A study of Mus musculus with 8 samples.

Results

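The B cells of the mouse bone marrow were examined for RNA from the 115 heavy chain V segments that their immunoglobulin heavy chain locus, Igh, carries in readable amounts. The segments were taken as every gene whose symbol begins with Ighv and that had 10 or more counts summed over the 8 libraries, which gave 115 of the 120 Ighv genes in a table of 27179 genes. The 5 Ighv genes left out held 0 to 9 counts in all (Ighv16-1, Ighv1-19-1, Ighv1-16, Ighv1-24 and Ighv13-1), and the weakest segments included, Ighv8-9, Ighv5-12-4 and Ighv2-7, held 15, 24 and 28. The segments comprised 57 of family Ighv1 and 58 of the other families. The segments were thus chosen by their summed count, and the presence of a segment in the list is not a result.

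Early large pre-B cells (early LPre-B) and the smaller, resting pre-B cells that follow them (sPre-B) had been sorted from the bone marrow, and each of 4 groups held 2 libraries. All mice were age-matched adults that carried loxP-flanked Upf1 on both alleles (Upf1 Flox/Flox) and a prearranged heavy chain gene, B1-8hi, on 1 of their Igh alleles (Igh B1-8hi/+), the other Igh allele being wild type. The cKO mice were Mb1 Cre/+, so that Cre stood in the Mb1 (Cd79a) gene and acted from the earliest B-lineage cells on, whereas the Ctrl mice were Mb1 +/+ and held no Cre. The loss of Upf1, the helicase of nonsense-mediated mRNA decay, and the presence of Cre with the loss of 1 Cd79a copy can therefore not be told apart. The comparison of cKO with Ctrl asked how the RNA of heavy chain V segments stood in pre-B cells with and without UPF1 when a finished heavy chain is supplied, and that of sPre-B with early LPre-B cells how it moved between the stages.

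A heavy chain gene is assembled by RAG1 and RAG2, which first join a D to a J segment and then 1 of many V segments to that DJ unit. Unjoined V segments are themselves transcribed from their own promoters while the locus is open, giving germline transcripts, and a V segment that has been joined is transcribed as part of the heavy chain mRNA. The D-proximal families, Ighv5 and Ighv2, lie next to the D segments, the distal families Ighv1 and Ighv8 lie farthest away, and use of the distal families depends on contraction of the locus, in which Pax5, Yy1 and Ctcf take part. B1-8hi carries the V segment known as V186.2, which is the segment named Ighv1-72 in the mouse annotation, joined to J segment 2. A gene count does not separate reads of the knocked-in chain, reads of any other joined V segment and germline reads.

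The sequences that decide which reads can fall where are given here, as the first 300 bases of the V exon in the coding direction, all on the minus strand of chromosome 12 of GRCm38 (exon bounds from the GENCODE annotation). Ighv1-72 is the segment of the knock-in, Ighv1-62-3 and Ighv1-74 are the segments that kept most counts beside it, Ighv1-59 is a relative of similar identity that did not, Ighv1-26 had the largest Ctrl count in early LPre-B cells among the segments that fell by 2 or more on the Log2 scale, and Ighv5-2 lies nearest to the D segments. Capital letters mark bases that differ from Ighv1-72 in the alignment of the whole exons or have no counterpart there. The printed part of Ighv1-72 spans chr12:115757989-115758288, that of Ighv1-62-3 chr12:115461004-115461303, that of Ighv1-74 chr12:115802653-115802952, that of Ighv1-59 chr12:115335087-115335386, that of Ighv1-26 chr12:114788377-114788676 and that of Ighv5-2 chr12:113578511-113578810.
Ighv1-72: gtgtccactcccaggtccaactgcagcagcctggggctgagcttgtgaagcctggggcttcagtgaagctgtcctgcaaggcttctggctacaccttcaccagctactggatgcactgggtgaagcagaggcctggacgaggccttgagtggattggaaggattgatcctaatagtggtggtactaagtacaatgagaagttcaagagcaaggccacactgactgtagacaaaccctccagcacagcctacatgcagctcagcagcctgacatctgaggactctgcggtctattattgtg
Ighv1-62-3: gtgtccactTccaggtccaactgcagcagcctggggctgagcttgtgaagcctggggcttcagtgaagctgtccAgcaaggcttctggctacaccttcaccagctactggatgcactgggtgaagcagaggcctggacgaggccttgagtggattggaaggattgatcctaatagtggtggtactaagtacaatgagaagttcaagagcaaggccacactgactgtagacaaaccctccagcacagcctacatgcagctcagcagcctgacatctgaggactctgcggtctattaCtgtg
Ighv1-74: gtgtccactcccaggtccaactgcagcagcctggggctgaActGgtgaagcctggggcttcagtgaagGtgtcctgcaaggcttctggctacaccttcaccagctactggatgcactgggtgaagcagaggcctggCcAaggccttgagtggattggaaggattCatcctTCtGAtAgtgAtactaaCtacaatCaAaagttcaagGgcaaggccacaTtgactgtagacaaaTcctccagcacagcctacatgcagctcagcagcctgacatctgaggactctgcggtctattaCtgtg
Ighv1-59: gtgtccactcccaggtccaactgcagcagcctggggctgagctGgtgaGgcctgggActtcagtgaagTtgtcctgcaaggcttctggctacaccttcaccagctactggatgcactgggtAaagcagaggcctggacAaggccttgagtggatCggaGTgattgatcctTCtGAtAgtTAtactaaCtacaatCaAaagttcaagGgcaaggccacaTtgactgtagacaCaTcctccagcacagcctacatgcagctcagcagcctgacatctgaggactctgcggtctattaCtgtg
Ighv1-26: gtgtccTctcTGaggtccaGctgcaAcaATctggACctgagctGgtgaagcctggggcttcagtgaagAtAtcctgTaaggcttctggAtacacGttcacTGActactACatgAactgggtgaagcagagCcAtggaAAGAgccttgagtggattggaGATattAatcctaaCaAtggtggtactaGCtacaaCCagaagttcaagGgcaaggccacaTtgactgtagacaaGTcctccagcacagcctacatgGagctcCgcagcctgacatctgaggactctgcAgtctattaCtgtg
Ighv5-2: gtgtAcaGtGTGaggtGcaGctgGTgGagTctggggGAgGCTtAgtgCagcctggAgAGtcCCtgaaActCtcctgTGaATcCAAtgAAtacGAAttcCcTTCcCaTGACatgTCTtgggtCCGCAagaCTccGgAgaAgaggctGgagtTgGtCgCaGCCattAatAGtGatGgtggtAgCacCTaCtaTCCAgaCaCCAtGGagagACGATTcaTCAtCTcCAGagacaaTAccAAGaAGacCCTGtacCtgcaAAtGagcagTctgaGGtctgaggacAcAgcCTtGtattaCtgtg
Over the whole exon, Ighv1-62-3 differed from Ighv1-72 at 3 bases and was 99.0% identical, Ighv1-74 at 20 bases (93.4%), Ighv1-59 at 24 bases (92.1%), Ighv1-26 at 45 bases (85.2%) and Ighv5-2 at 124 bases (59.2%). The longest run of bases shared with Ighv1-72 was 220 for Ighv1-62-3, 67 for Ighv1-74, 61 for Ighv1-59, 25 for Ighv1-26 and 9 for Ighv5-2. By the limit of 95% identity, the near copies of Ighv1-72 were Ighv1-62-3, Ighv1-64 and Ighv1-53, both of the latter at 96.1%.

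The libraries held 68516857 to 160426338 counts. Ighv segments took 0.0579% and 0.0513% of them in Ctrl early LPre-B cells, 0.0437% and 0.0416% in cKO early LPre-B cells, 0.141% and 0.132% in Ctrl sPre-B cells, and 0.121% and 0.107% in cKO sPre-B cells. A segment at 0 counts could stand for up to 3 counts, which is 0.0217 to 0.0426 CPM (counts per total count of the library, scaled as described for the test) depending on the library. These floors, and the intervals given below for shares, cover counting error only. Log2FC values are given with their SE after ± and with the adjusted P of the edgeR test. The Upf1 gene count was not lower in the cKO libraries, with a Log2FC of 0.16 ± 0.10, adjusted P = 0.251 in early LPre-B and a Log2FC of 0.59 ± 0.10, adjusted P = 0.00245 in sPre-B cells, but only the loxP-flanked exons are removed and a count over the whole gene does not check the deletion. Cd79a, the site of the Cre insertion, was lower in cKO, with a Log2FC of -1.77 ± 0.16, adjusted P = 0.000157 and a Log2FC of -2.08 ± 0.16, adjusted P = 7.05e-05. Below, cKO and Ctrl stand for the libraries so labelled.

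A few segments carried most of the Ighv reads. In Ctrl, Ighv1-72 alone held 35.1% and 37.4% of the Ighv counts at the early LPre-B stage and 34.3% and 36.7% at the sPre-B stage. In cKO it held 50.4% and 50.2% at the early stage and 48.4% and 45.6% at the later one, so that its share was higher in all 4 cKO libraries than in all 4 Ctrl libraries. The widest of these 8 intervals (95%, Clopper-Pearson) spanned 0.918 percentage points. Together with its 3 near copies, Ighv1-72 held 49.3% to 54.5% of the Ighv counts in Ctrl and 64.0% to 69.7% in cKO libraries, and the 10 segments of the highest total count held 71.0% to 74.4% and 94.4% to 97.8%. The other segments were numerous in Ctrl and nearly empty in cKO. The median segment of the early LPre-B stage had 174 and 77 counts in Ctrl against 2 and 3 in cKO, and that of the sPre-B stage 235 and 181 against 5 and 5. Segments with over 50 counts numbered 92 and 69 in Ctrl early LPre-B libraries against 12 and 15 in cKO, and 87 and 82 against 22 and 22 in sPre-B libraries. In early LPre-B cells 20 segments, and in sPre-B cells 16 segments, had no count in either cKO library, against 1 in the Ctrl libraries of each stage.

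**Figure D1:**
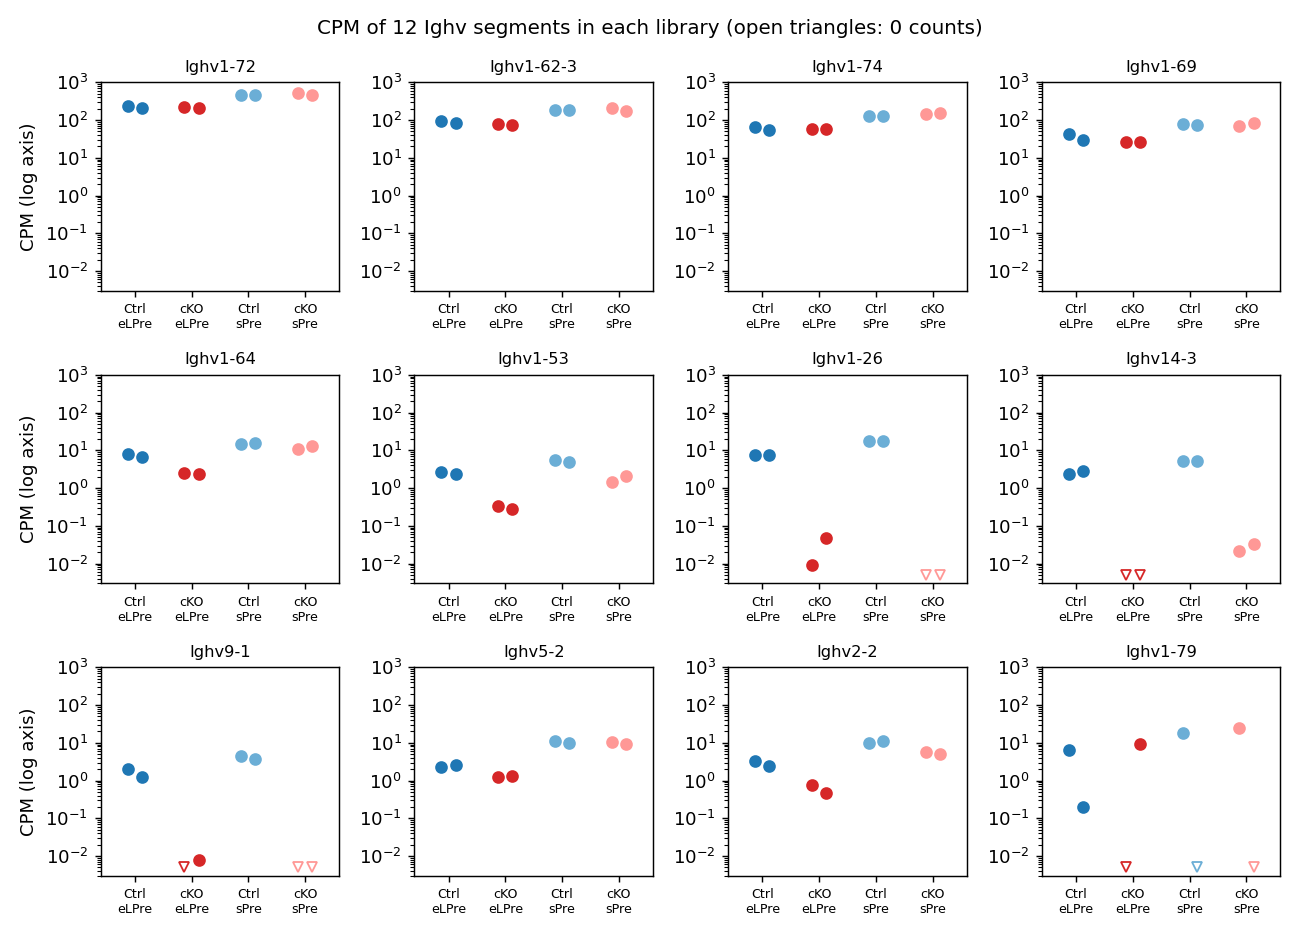
CPM (log axis) of 12 Ighv segments in each of the 8 libraries, grouped as Ctrl and cKO early LPre-B (eLPre) and Ctrl and cKO sPre-B (sPre); each point is a library and open triangles mark 0 counts. Ighv1-72, Ighv1-62-3 and Ighv1-74 stand at like heights in cKO and Ctrl, Ighv1-26, Ighv14-3 and Ighv9-1 lie 2 or more powers of 10 lower or at 0 in cKO, and Ighv1-79 is high in 1 library of each group.

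In early LPre-B cells, the great majority of the segments were lower in cKO than in Ctrl. Of the 111 segments that passed the filter on low counts, 91 fell and 20 did not pass the test (edgeR quasi-likelihood test, adjusted P under 0.05 over all 17700 genes tested). With edgeR 0 rose and 1 was higher at an unadjusted P under 0.05, and DESeq2 called 0 higher. Over all genes tested, 16.9% were called lower and 14.5% higher. The median Log2FC of the segments was -4.70 (-4.42 with segments at 0 set to the bound that 3 counts give), against -0.06 over all genes. The Log2FC was -2 or less in 88 of the 91 segments, and the 2 cKO libraries did not overlap with the 2 Ctrl libraries in 104 of all 115, against 66.3% of all genes tested. A segment with reads in Ctrl and hardly any in cKO entered through its Ctrl counts, so these numbers describe the list and are no test of it. The 4 segments not tested were Ighv1-62-1, Ighv8-9, Ighv8-14 and Ighv1-86. The number at 0 or 1 count also depends on depth.

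The 5 lowest fitted Log2FC values among well counted segments, those with 50 or more counts in each Ctrl library and no overlap between the groups, came from 3 families. All 5 had no count in cKO, so their folds are bounds. Ighv4-1 and Ighv9-1, at 0.216% and 0.234% of Ctrl, held 1 cKO count each. That is under the floor of 3 counts, so their falls are not measured past these bounds. Ighv1-19 had 390 and 218 counts in Ctrl and 0 in both cKO libraries, at least 223-fold lower, adjusted P = 1.12e-05. Ighv14-3 had 334 and 224 counts in Ctrl and 0 in both cKO libraries, at least 210-fold lower, adjusted P = 2.18e-05. Both segments were at or under the floor of 3 counts in cKO, while each Ctrl library held over 200. Ighv1-22 went from 270 and 114 to 0 and 0 counts (at least 136-fold lower, adjusted P = 7.47e-05). Ighv5-16, a D-proximal segment, went from 180 and 113 to 0 and 0 counts (at least 109-fold lower, adjusted P = 6.23e-05), and Ighv1-15 from 181 and 100 to 0 and 0 counts (at least 103-fold lower, adjusted P = 0.000188). Ighv1-26 had 1053 and 600 counts in Ctrl against 1 and 6 in cKO early LPre-B cells, a Log2FC of -7.98 ± 0.36, adjusted P = 1.95e-05.

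In sPre-B cells, which follow the early LPre-B stage, the same comparison gave 84 segments lower and 2 higher in cKO, with 25 not passing the test. The background was 14.9% of all genes called lower and 19.8% called higher. The median Log2FC was -4.90 (-4.73 with bounds), against 0.01 over all genes, 80 segments had a Log2FC of -2 or less, and 98 of 115 did not overlap between the groups, against 70.8% of all genes tested. Of the 91 segments lower in early LPre-B cells, 82 were also lower in sPre-B cells, which is 82 of the 84 lower there. The stages share neither cKO nor Ctrl libraries, but share 1 fit, and the labels do not say whether the same mice gave both. The overlap is therefore no independent check. Ighv1-26 had 1494 and 1263 counts in Ctrl and 0 in both cKO sPre-B libraries, at least 1289-fold lower, adjusted P = 1.05e-05. Ighv1-81 went from 619 and 469 to 0 and 0 counts (at least 506-fold lower, adjusted P = 3.45e-05) and Ighv14-2 from 502 and 348 to 0 and 0 counts (at least 394-fold lower, adjusted P = 5.87e-05). These segments were near 0 in cKO early LPre-B cells too, where Ighv1-81 had 2 and 0 counts and Ighv14-2 had 1 and 8. Ighv9-1 went from 381 and 256 to 0 and 0 counts (at least 295-fold lower, adjusted P = 6.27e-05), and Ighv1-61, 90.8% identical to Ighv1-72, from 184 and 171 to 0 and 0 counts (at least 167-fold lower, adjusted P = 4.99e-05).

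Set out by their early LPre-B values, 88 segments were lost (adjusted P under 0.05 and a Log2FC of -2 or less), 14 were kept (a Log2FC between -1 and 1), 8 were in neither class and 1, Ighv6-4, was above 1. Of the 8, 5 had a Log2FC of -2 or less but did not pass the test and 3 lay between -2 and -1. These classes describe the contrast they were drawn from. In sPre-B cells, whose libraries entered the classes only through the filter, scaling and spread shared in the fit, 82 of the 88 lost segments were lower in cKO, and their summed level was 32.2 and 21.6 CPM in cKO against 373 and 319 CPM in Ctrl. The 14 kept segments summed to 1057 and 979 CPM in cKO and 980.4 and 948 CPM in Ctrl sPre-B cells. Of these 14, 10 belonged to Ighv1, and Ighv5-12-4 counts as kept only because it had no read in any early LPre-B library. Ighv1-55, Ighv1-63 and Ighv1-79 count as kept by the means of libraries that differed within a group, as given below.

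Ighv1-72 and Ighv1-62-3, the segment most like it, did not pass the test between cKO and Ctrl at either stage. Ighv1-72 had 236 and 205 CPM in Ctrl against 218 and 208 CPM in cKO early LPre-B cells, and 469 and 471 against 538 and 462 CPM in sPre-B cells. The cKO and Ctrl libraries overlapped at both stages, with a Log2FC of -0.05 ± 0.12, adjusted P = 0.773 and a Log2FC of 0.09 ± 0.12, adjusted P = 0.597. Ighv1-62-3 had 93.8 and 85.2 CPM in Ctrl against 80.4 and 74.1 CPM in cKO early LPre-B cells (Log2FC -0.21 ± 0.11, adjusted P = 0.194), with both cKO libraries below both Ctrl libraries. In sPre-B cells it had 186 and 182 against 211 and 172 CPM (Log2FC 0.06 ± 0.11, adjusted P = 0.73), with overlapping libraries. The other near copies were lower in cKO. Ighv1-64 had 8.12 and 6.77 CPM in Ctrl against 2.56 and 2.41 CPM in cKO early LPre-B cells (Log2FC -1.58 ± 0.16, adjusted P = 0.000232). Its sPre-B values were 14.7 and 15.9 and 10.7 and 12.8 CPM (Log2FC -0.38 ± 0.15, adjusted P = 0.0814), so that it fell at the early stage and did not pass the test at the later one, where DESeq2 called it lower (adjusted P = 0.0442). Ighv1-53 fell at both, from 2.60 and 2.38 to 0.331 and 0.277 CPM (Log2FC -3.03 ± 0.26, adjusted P = 0.000117) and from 5.54 and 4.89 to 1.45 and 2.04 CPM (Log2FC -1.58 ± 0.23, adjusted P = 0.00134).

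Several Ighv1 segments under the 95% limit also had a Log2FC between -1 and 1. Ighv1-74, at 93.4% identity, had 64.4 and 54.4 CPM in Ctrl against 56.3 and 57.8 CPM in cKO early LPre-B cells (Log2FC -0.06 ± 0.10, adjusted P = 0.684), and 130.2 and 131 against 146 and 154 CPM in sPre-B cells (Log2FC 0.20 ± 0.10, adjusted P = 0.141). Ighv1-69, also at 93.4%, had 42.2 and 30.5 against 25.8 and 26.5 CPM in early LPre-B cells (Log2FC -0.47 ± 0.15, adjusted P = 0.0462). This call lay near the threshold and was lost in 9 alternatives, a replicate block (adjusted P = 0.0546) among them. Its Log2FC was -0.18 without Ctrl early LPre-B replicate 1, and -0.45 and -0.49 without cKO early LPre-B replicate 1 and 2. In sPre-B cells the segment gave a Log2FC of 0.02 ± 0.15, adjusted P = 0.935. Ighv1-50, at 91.8%, gave a Log2FC of -0.01 ± 0.24, adjusted P = 0.973 and a Log2FC of 0.11 ± 0.24, adjusted P = 0.762 at the 2 stages. Ighv1-52, at 90.8%, gave a Log2FC of -0.45 ± 0.16, adjusted P = 0.0679 and a Log2FC of -0.38 ± 0.16, adjusted P = 0.104, and Ighv1-85, at 89.2% and the segment before last from the D side, a Log2FC of -0.28 ± 0.41, adjusted P = 0.641 and a Log2FC of 0.34 ± 0.41, adjusted P = 0.556. None of these 3 passed the test. In alternatives, Ighv1-52 was lower in cKO early LPre-B cells with DESeq2 (adjusted P = 0.0459), without Ctrl early LPre-B replicate 2 (0.0274) and without the replicate 2 libraries of Ctrl (0.0403), and in sPre-B cells without either Ctrl early LPre-B library (0.0293 and 0.0331). Identity alone did not separate kept from lost segments. Ighv1-59, at 92.1%, fell from 242 and 95 to 11 and 2 counts in early LPre-B cells (Log2FC -4.71 ± 0.58, adjusted P = 0.000652) and from 236 and 230 to 3 and 5 counts in sPre-B cells (Log2FC -6.32 ± 0.63, adjusted P = 0.000196).

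Across the 57 Ighv1 segments, the segments at 90% identity or more had higher medians of the Ctrl level left in cKO than those below, while the order within either part differed between the stages. Of the 4 segments at 95% identity or more, 2 were lower in early LPre-B and 1 in sPre-B cells, and of the 7 at 90% to 95%, 3 and 2 were. Of the 30 segments at 85% to 90%, of which 28 were tested, 22 and 21 were lower, and of the 16 below 85%, 16 and 15. The median level in cKO, as a percentage of Ctrl, was 59.9% and 90.4% at the 2 stages for the first set, which holds Ighv1-72 itself, and 73.3% and 76.9% for the second. It was 2.83% and 2.09% for the third set and 2.88% and 1.61% for the fourth. Single segments went against this order, and the highest value of the early stage, 199%, was that of Ighv1-63 at 87.5% identity. The correlation of identity with Log2FC over the 55 Ighv1 segments tested was r = 0.50 (rho = 0.45) in early LPre-B and r = 0.37 (rho = 0.30) in sPre-B cells, as a description over segments that share reads and libraries.

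**Figure D2:**
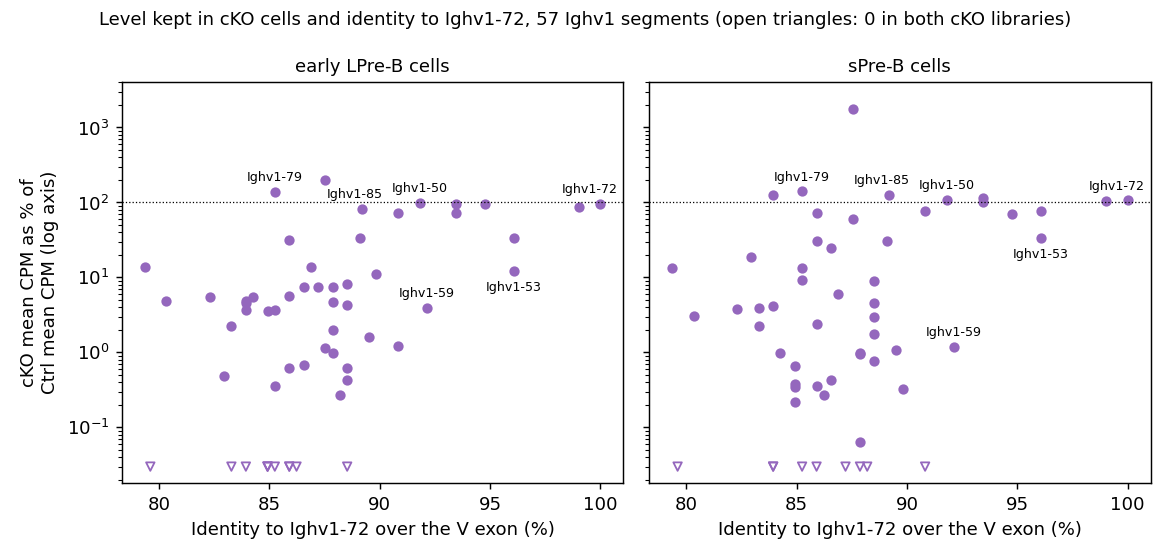
Mean CPM in cKO as a percentage of the Ctrl mean (log axis) against identity to Ighv1-72 over the V exon (%), for the 57 Ighv1 segments in early LPre-B cells (left) and sPre-B cells (right); each point is a segment, the dotted line marks 100% and open triangles mark segments with 0 counts in both cKO libraries. Ighv1-72 lies near 100% at both stages, and Ighv1-59, at 92.1% identity, lies at 3.92% and 1.20%.

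The counts of some relatives moved with those of Ighv1-72 in every library. The V exons of all segments are 301 to 351 bases long, so counts were set against each other without division by length. The Ighv1-62-3 count was 35.6% to 41.5% of the Ighv1-72 count over the 8 libraries, a coefficient of variation of 4.88%. That of Ighv1-74 was 25.9% to 33.3% (8.13%), that of Ighv1-69 11.9% to 18.1%, that of Ighv1-52 2.48% to 3.77% (16.8%) and that of Ighv1-50 3.76% to 6.14% (17.4%). For each of these 5 segments the highest ratio was less than 2-fold the lowest. Ighv1-64 and Ighv1-53 did not keep such a ratio. Ighv1-64 lay at 1.16% to 3.44%, and Ighv1-53 at 0.133% to 1.18%, both lowest in the cKO early LPre-B libraries. Ighv1-55, 94.8% identical to Ighv1-72, ranged from 0.173% to 6.98%, with the extremes in the 2 cKO sPre-B libraries. The settings for reads that match several places are not given in the sources used here, and the part of shared reads in these ratios was not tested.

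**Figure D3:**
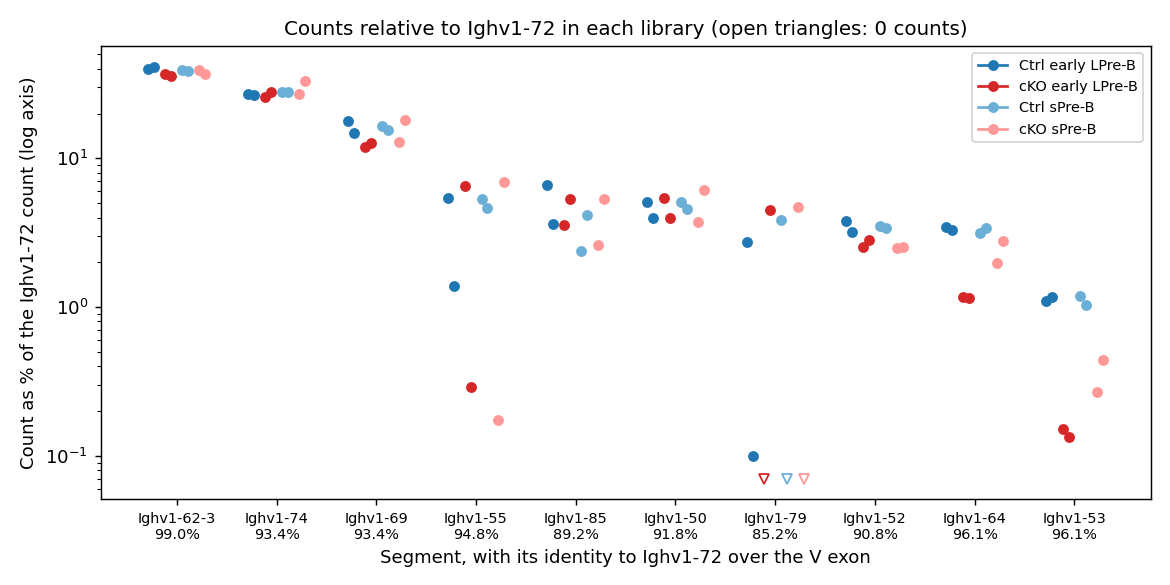
Count of 10 Ighv1 segments as a percentage of the Ighv1-72 count in each of the 8 libraries (log axis), with the identity of each segment to Ighv1-72 under its name; each point is a library, coloured by group, and open triangles mark 0 counts. Ighv1-62-3 stays between 35.6% and 41.5%, whereas Ighv1-55 and Ighv1-79 differ between the libraries of 1 group.

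The place of a segment along the locus went with its level in cKO among the D-proximal segments. The 115 segments span 2431 kb, and the first begins 50.45 kb beyond the end of the D segments. Ighv5-2, the nearest, had 311 and 200 counts in Ctrl against 139 and 167 in cKO early LPre-B cells, and 965 and 698 against 978 and 1184 in sPre-B cells. It thus kept 53.2% of its Ctrl level at the early stage (Log2FC -0.91 ± 0.17, adjusted P = 0.00424) and 94.2% at the later one (Log2FC -0.09 ± 0.16, adjusted P = 0.705). Ighv2-2, next in order, had 449 and 194 against 84 and 60 counts (Log2FC -2.23 ± 0.26, adjusted P = 0.000479) and 862 and 765 against 513 and 650 counts (Log2FC -0.97 ± 0.24, adjusted P = 0.0137), and so kept 21.5% and 51.1%. The sPre-B call of Ighv2-2 was lost in 5 alternatives, with an adjusted P of 0.0526 to 0.0672. Further out, Ighv5-4 kept 13.8% and 27.0% of its Ctrl level, Ighv2-3 21.0% and 38.7%, Ighv5-6 8.74% and 21.9%, and Ighv5-9-1 1.24% and 3.56%. Ighv5-17, next to last of the D-proximal segments, kept 0.653% and 1.08%. The descent was uneven, since Ighv5-9, the seventh in order, kept 12.9% and 4.004%, Ighv2-6-8, the fourteenth, 4.76% and 10.4%, and Ighv2-9, the last, 4.70% and 0.335%. The 0.335% of Ighv2-9 rests on a mean of Ctrl sPre-B libraries that held 36.0 and 2.57 CPM. The correlation of order with Log2FC was r = -0.77 (rho = -0.80) over the 18 D-proximal segments with a count in early LPre-B cells, and r = -0.89 (rho = -0.92) over all 19 in sPre-B cells. Over the 107 segments tested outside Ighv1-72 and its near copies it was r = 0.10 and 0.05. Both are descriptions over neighbouring segments from the same libraries.

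**Figure D4:**
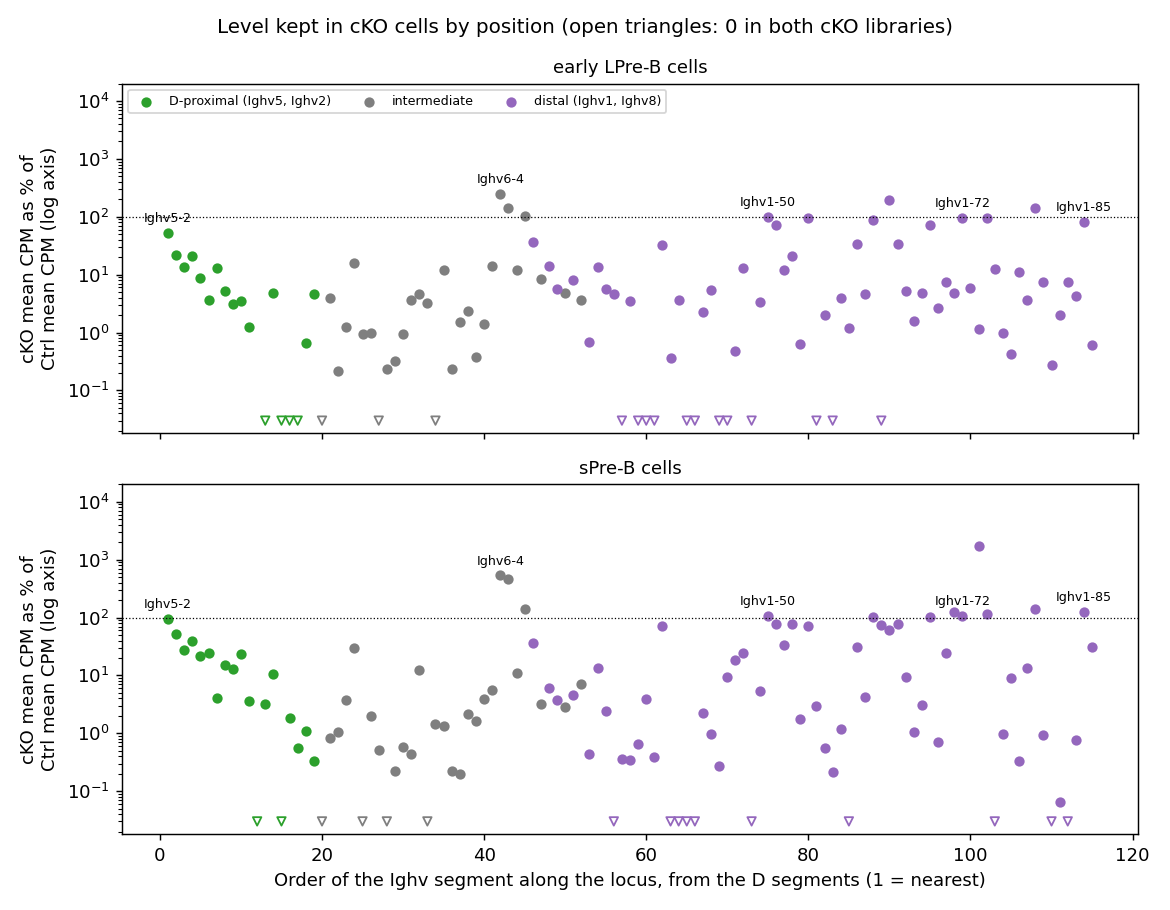
Mean CPM in cKO as a percentage of the Ctrl mean (log axis) for each segment in its order from the D segments (1 is nearest), in early LPre-B cells (top) and sPre-B cells (bottom); colours mark the D-proximal, intermediate and distal families, open triangles segments with 0 counts in both cKO libraries, and segments with no Ctrl count are not drawn. The D-proximal points descend unevenly from 53.2% and 94.2% at Ighv5-2, and Ighv1-72 lies near 100%.

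Taken by position, the 3 groups of families each lost most of their segments. Of the 19 D-proximal segments, 17 were lower in early LPre-B and 16 in sPre-B cells. Of the 29 intermediate segments, 25 were lower at both stages and 2 were higher in sPre-B cells, and of the 63 distal segments tested, 49 and 43 were lower. The D-proximal sum went from 31.5 and 23.4 to 3.44 and 3.05 CPM in early LPre-B cells and from 119 and 76.5 to 25.1 and 22.9 CPM in sPre-B cells, leaving 11.8% and 24.5% of Ctrl. Ighv2-9 alone gave 36.0 of the 119 CPM in Ctrl sPre-B replicate 1, against 2.57 CPM in replicate 2. The intermediate sum went from 42.7 and 39.0 to 1.63 and 1.86 CPM and from 104 and 98.1 to 2.66 and 3.45 CPM, leaving 4.27% and 3.02%. The distal sum, which holds Ighv1-72 and its relatives, went from 598 and 487 to 427 and 409 CPM and from 1147 and 1109.8 to 1083 and 988 CPM, leaving 77.04% and 91.7%. Without Ighv1-72 and its near copies the distal segments kept 56.2% and 72.8%. In bulk libraries such a sum does not separate fewer cells that carry these RNAs from less RNA in each cell.

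**Figure D5:**
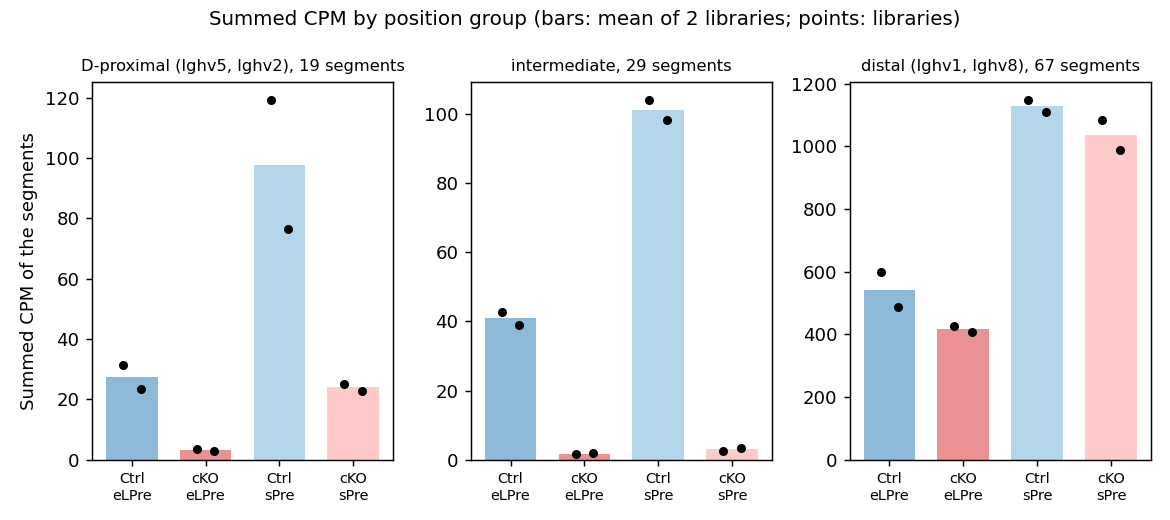
Summed CPM of the D-proximal (19), intermediate (29) and distal (67) segments in Ctrl and cKO early LPre-B and sPre-B cells; bars are means of 2 libraries, points are the libraries and each panel has its own linear axis from 0. The intermediate sum in cKO stays at or below 3.45 CPM, against 39.0 to 104 CPM in Ctrl.

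Segments fell both in Ighv1 and in other families. Outside Ighv1-72 and its near copies, 41 of 51 Ighv1 segments tested were lower in early LPre-B and 38 in sPre-B cells, and of the 56 segments of other families tested, 48 and 45. The median level left was 3.69% and 2.40% of Ctrl for the former and 3.63% and 3.38% for the latter. The summed levels lay further apart, with 58.3% and 75.6% of Ctrl left for the former and 7.001% and 12.9% for the latter. The 4 segments of Ighv9, the 6 of Ighv3 and the 4 of Ighv14 were all lower at both stages, with medians of 0.642%, 1.80% and 2.29% in early LPre-B cells. The 2 segments of Ighv10 and the single segments of Ighv4, Ighv12, Ighv13 and Ighv15 were lower at both stages as well. Ighv8, which lies among the distal Ighv1 segments, had 6 of 8 and 4 of 8 tested segments lower.

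Ighv6, an intermediate family of 5 segments, was the family whose median level was not below Ctrl, at 102% in early LPre-B and 143% in sPre-B cells. Its 2 well counted segments, Ighv6-3 and Ighv6-6, fell at both stages. Ighv6-3 had 428 and 185 against 39 and 52 counts in early LPre-B cells (Log2FC -2.85 ± 0.29, adjusted P = 0.000241), and Ighv6-6 had 257 and 120 against 24 and 24 (Log2FC -3.07 ± 0.32, adjusted P = 0.000287). The 3 others were weakly read. Ighv6-4 had 5 and 5 counts in Ctrl against 34 and 41 in cKO sPre-B cells (Log2FC 2.40 ± 0.57, adjusted P = 0.0124), and Ighv6-5 had 4 and 6 against 24 and 44 (Log2FC 2.21 ± 0.59, adjusted P = 0.0191). They were the 2 segments higher in cKO, and lost that call in 5 and 7 alternatives, with an adjusted P of up to 0.0846 and 0.144. In early LPre-B cells, Ighv6-4 had 15 and 5 against 17 and 36 counts (Log2FC 1.28 ± 0.54, adjusted P = 0.103).

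Some segments were high in a single library of a group. Defined as 50 or more counts in 1 library and a level at least 5-fold that of the other, this held 14 times, for 8 segments. Ighv1-79 had 898 and 16 counts in Ctrl against 0 and 1214 in cKO early LPre-B cells, and 1519 and 0 against 2319 and 0 in sPre-B cells, so that each group held 1 library with 898 counts or more and 1 near or at 0. Ighv1-55 had 1535 and 78 counts in cKO early LPre-B cells and 86 and 4034 in cKO sPre-B cells. Ighv1-73 had 948 and 2 and Ighv1-71 1015 and 45 counts in cKO sPre-B cells, and Ighv1-63 had 916 and 147 in Ctrl and 722 and 2 in cKO sPre-B cells. Of the farthest segment, Ighv1-86, Ctrl replicate 1 of early LPre-B cells held 757 counts and the other 7 libraries 0 to 5 each. All of these but Ighv2-9, which had 3044 and 181 counts in Ctrl sPre-B cells, belonged to Ighv1. For such segments a mean of 2 libraries describes neither, and none of Ighv1-55, Ighv1-63 and Ighv1-79 passed the test at either stage.

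As a share of all counts, the 111 segments outside Ighv1-72 and its near copies held 286 and 233 CPM, here per total count without TMM scaling, in the early LPre-B libraries of Ctrl and 132 and 130.2 CPM in those of cKO. At the sPre-B stage the Ctrl libraries held 717 and 628 CPM and the cKO libraries 379 and 387 CPM. The cKO mean was 50.6% of the Ctrl mean at the early and 56.9% at the later stage, and no cKO library overlapped with a Ctrl library of its stage. The exact permutation test gave p = 0.333 at each stage (two-sided), which is the smallest that 2 against 2 libraries allow, and p = 0.0556 with both stages together over 36 arrangements within stages, also the smallest possible. The 36 arrangements take the 2 stages as separate, whereas the labels do not say whether the same mice gave both. If they did, the smallest possible p would be that of a single stage. Most of what remained in cKO lay on a few segments. With the 10 segments of the highest count left out too, the remaining 104 held a mean of 138 ± 10.8 CPM in Ctrl and 9.72 ± 0.396 CPM in cKO early LPre-B cells (SD, n = 2), or 7.03%. In sPre-B cells they held 405 and 337 CPM in Ctrl and 65.9 and 32.2 CPM in cKO, or 13.2%, which was 8.68% without cKO replicate 1 and 17.8% without cKO replicate 2. With all of Ighv1 left out, the 58 segments of other families stood at 7.90% and 13.4%.

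Between the stages, most Ctrl segments rose. In Ctrl sPre-B against early LPre-B cells, 60 segments were higher and 6 lower of 111 tested, with a median Log2FC of 1.19 against 0.02 over all genes, of which 29.1% were called higher and 31.1% lower. Ighv1-72 rose too, with a Log2FC of 1.09 ± 0.12, adjusted P = 7.14e-05. Ighm, a constant region of the locus, and the J segments rose by a like amount. The Log2FC was 1.06 ± 0.18 for Ighm, and 1.19 ± 0.10, 1.13 ± 0.11, 1.23 ± 0.12 and 1.13 ± 0.09 for Ighj1 to Ighj4, each with an adjusted P of 0.00107 or less. By position, 15 of 19 D-proximal, 16 of 29 intermediate and 29 of 63 distal segments were higher, and the 6 lower segments were all distal. The difference between these shares was not tested. Ighv5-2 gave a Log2FC of 2.15 ± 0.17, adjusted P = 1.08e-05, Ighv2-5 a Log2FC of 2.02 ± 0.31, adjusted P = 0.000565 and Ighv1-7 a Log2FC of 1.98 ± 0.46, adjusted P = 0.00507. The call of Ighv1-7 was lost without the replicate 1 and without the replicate 2 libraries of Ctrl (adjusted P = 0.0806 and 0.0763). Ighv2-4 gave a Log2FC of 2.03 ± 0.72, adjusted P = 0.0371, a call lost in 5 alternatives (adjusted P of up to 0.25). Ighv2-9 gave a Log2FC of 4.17 ± 1.03, adjusted P = 0.00738, but went from 185 and 61 to 3044 and 181 counts and without Ctrl sPre-B replicate 1 its adjusted P was 0.135. The largest falls among well counted segments were those of Ighv1-84, from 318 and 188 to 67 and 44 counts (Log2FC -1.73 ± 0.35, adjusted P = 0.00274), and Ighv1-66, from 572 and 334 to 149 and 126 (Log2FC -1.25 ± 0.22, adjusted P = 0.00125). Without the replicate 2 libraries of Ctrl, Ighv1-84 gave an adjusted P of 0.0851. The count of changed segments, 66, was 43 without Ctrl early LPre-B replicate 2, 28 without the replicate 1 libraries of Ctrl and 26 without the replicate 2 libraries of Ctrl.

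In cKO, 38 of 111 segments tested were higher and 8 lower in sPre-B than in early LPre-B cells, where 31.6% of all genes were called higher and 31.1% lower. The share of segments called higher was thus near that of all genes. The median Log2FC was 1.18, or 0.88 with bounds for segments at 0. Here 14 of 19 D-proximal segments were higher, with a median of 2.66, against 6 of 29 intermediate and 18 of 63 distal segments. In cKO early LPre-B cells the 29 intermediate segments together held only 177 and 242 counts, which limits the calls that could be made. The 19 D-proximal segments held 375 and 396. The 5 largest rises among well counted segments were all in this D-proximal group. Ighv5-12 went from 0 and 19 to 64 and 107 counts (Log2FC 3.31 ± 0.76, adjusted P = 0.00479), Ighv2-2 from 84 and 60 to 513 and 650 (Log2FC 3.13 ± 0.26, adjusted P = 1.82e-05) and Ighv5-2 from 139 and 167 to 978 and 1184 (Log2FC 2.97 ± 0.17, adjusted P = 3.26e-06). Ighv2-3 gave a Log2FC of 2.66 ± 0.27, adjusted P = 4.78e-05 and Ighv5-4 a Log2FC of 2.58 ± 0.32, adjusted P = 0.000151, while Ighv1-72 gave a Log2FC of 1.23 ± 0.12, adjusted P = 3.69e-05. Fitted on the 4 cKO libraries alone, 25 of the 45 segments that then passed the filter changed.

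The cKO effect itself differed between the stages for 6 of 111 segments, 4 with a more negative and 2 with a less negative Log2FC in sPre-B cells, against 1.6% and 2.64% of all genes. The share of segments called was thus close to that of all genes. An unadjusted P under 0.05 was reached by 33. Ighv1-64, a near copy of Ighv1-72, gave a difference of 1.20 ± 0.22, adjusted P = 0.0253, and Ighv1-47, with 0 and 1 counts in cKO early LPre-B and 26 and 78 in cKO sPre-B cells, a difference of 4.81 ± 0.94, adjusted P = 0.0298. The difference was -2.997 ± 0.52, adjusted P = 0.022 for Ighv14-4, -4.87 ± 0.88, adjusted P = 0.0249 for Ighv1-82, -5.87 ± 1.24, adjusted P = 0.0449 for Ighv1-26 and -1.42 ± 0.32, adjusted P = 0.0479 for Ighv10-1. The count of 6 was 1 to 16 over the other settings tried and 0 without the replicate 1 or without the replicate 2 libraries of Ctrl (edgeR, with 16 and 24 segments at an unadjusted P under 0.05). With 1 of the 8 libraries left out at a time, the call of Ighv14-4 was lost in 3 cases, that of Ighv1-82 in 5, that of Ighv1-47 in 6, those of Ighv1-26 and Ighv1-64 in 7 each and that of Ighv10-1 in all 8. The fitted differences of Ighv1-26 and Ighv1-82 also rest on cKO sPre-B counts of 0 or 1. For Ighv5-2 and Ighv2-2 the difference was 0.82 ± 0.23, adjusted P = 0.0829 and 1.26 ± 0.35, adjusted P = 0.0808, neither past the test. Ighv2-2 passed with the likelihood-ratio test (adjusted P = 0.0282), with DESeq2 (0.0103) and with no filter (0.0235), and Ighv5-2 with DESeq2 (0.0456), and neither in the other alternatives run.

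The J segments, which lie between the D segments and the constant regions, moved unequally. Ighj2, the J segment of the knocked-in gene, had 188 and 173 CPM in Ctrl and 209 and 181 CPM in cKO early LPre-B cells (Log2FC 0.11 ± 0.11, adjusted P = 0.46), and 404 and 386 against 343 and 335 CPM in sPre-B cells (Log2FC -0.22 ± 0.11, adjusted P = 0.142). Ighj4 had 57.7 and 60.2 against 43.3 and 40.3 CPM (Log2FC -0.49 ± 0.09, adjusted P = 0.00387) and 123 and 135 against 78.8 and 84.6 CPM (Log2FC -0.66 ± 0.09, adjusted P = 0.000825), and Ighj3 fell likewise, with a Log2FC of -0.68 ± 0.12, adjusted P = 0.00419 and a Log2FC of -0.70 ± 0.12, adjusted P = 0.00301. Ighj1 was higher in cKO early LPre-B cells (Log2FC 0.68 ± 0.10, adjusted P = 0.00148) and did not pass the test in sPre-B cells (Log2FC 0.24 ± 0.10, adjusted P = 0.0889). Ighm, the constant region of the first heavy chain that a B cell makes, gave a Log2FC of 0.06 ± 0.18, adjusted P = 0.836 and a Log2FC of -0.18 ± 0.18, adjusted P = 0.473. The falls of Ighj3 and Ighj4 were thus far smaller on the Log2FC scale than the median of -4.70 and -4.90 of the V segments.

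Among 38 genes known to act in heavy chain recombination, 20 were lower and 2 higher in cKO early LPre-B cells, and 13 were lower and 3 higher in cKO sPre-B cells. Over all genes tested, the shares were 16.9% lower and 14.5% higher at the early stage and 14.9% and 19.8% at the later one, and several of the shorter lists below lay near them. In the recombinase and end joining list of 12, 8 were lower and 1 higher at the early stage, and 5 and 1 at the later one. Rag1, which cuts the DNA at the recombination signals together with Rag2, had 409 and 385 CPM in Ctrl and 44.0 and 74.9 CPM in cKO early LPre-B cells (Log2FC -2.74 ± 0.25, adjusted P = 0.000148), and 3508 and 2964 against 1497 and 1612 CPM in sPre-B cells (Log2FC -1.06 ± 0.24, adjusted P = 0.00914). Rag2 gave a Log2FC of -1.04 ± 0.13, adjusted P = 0.00068 and a Log2FC of -0.15 ± 0.13, adjusted P = 0.394. Dntt, which adds bases at the joints, had 272 and 239.9 against 26.8 and 24.8 CPM in early LPre-B cells (Log2FC -3.31 ± 0.20, adjusted P = 3.79e-05). Of the 8 factors of the locus, 6 and 4 were lower at the 2 stages, among them Ebf1 (Log2FC -0.45 ± 0.14, adjusted P = 0.035 and a Log2FC of -0.80 ± 0.14, adjusted P = 0.00265), whereas Pax5, needed for contraction of the locus, gave a Log2FC of -0.21 ± 0.13, adjusted P = 0.238 and a Log2FC of -0.16 ± 0.13, adjusted P = 0.359. Yy1 gave a Log2FC of -0.11 ± 0.09, adjusted P = 0.391 and a Log2FC of 0.06 ± 0.09, adjusted P = 0.648. Of 6 loop extrusion genes 2 and 1 were lower, and the 2 of the early stage were Ctcf, which holds the anchors of the loops (Log2FC -0.51 ± 0.10, adjusted P = 0.00645, against a Log2FC of -0.22 ± 0.10, adjusted P = 0.125 in sPre-B cells), and the cohesin subunit Rad21 (Log2FC -0.81 ± 0.14, adjusted P = 0.00356, against a Log2FC of -0.27 ± 0.14, adjusted P = 0.176). Lower calls were made for 1 of 4 genes of histone marks in the V region at the early stage, and for 2 and 2 of 3 octamer-binding factors and their partner, which act on V promoters. Of 5 genes of the IL-7 receptor pathway 1 was lower and 1 higher at the early stage, and 1 and 2 at the later one. How far these genes bear on the V segments was not tested.

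Marker RNAs of B cell stages and of other cells differed with genotype as well, and in bulk RNA fewer cells and less RNA per cell cannot be told apart. The 6 markers of pro-B and early large pre-B cells summed to 985 and 734 CPM in Ctrl and 434 and 431 CPM in cKO early LPre-B cells, and to 62.8 to 93.5 CPM in the 4 sPre-B libraries. Without Dntt, the early sums were 713 and 494 against 408 and 406 CPM. The 5 markers of small pre-B cells summed to 690 and 684 CPM in Ctrl against 402 and 436 CPM in cKO early LPre-B cells, and to 4937 and 4472 against 3364 and 3597 CPM in sPre-B cells. At the early stage 3 of 5 were lower and 1 higher, and at the later one 1 was lower and 1 higher. The members differed in direction. Without Rag1 the sums were 281 and 299.7 against 358 and 361 CPM and 1429 and 1508 against 1867 and 1985 CPM, and without both Rag1 and Igkc 131 and 145 against 59.97 and 80.6 CPM and 809 and 784 against 761 and 805 CPM. Igkc, the light chain constant region, had 620 and 724 CPM in Ctrl and 1106 and 1180.2 CPM in cKO sPre-B cells. The 6 markers of mature B cells were 543 and 605 CPM in Ctrl and 1008 and 725 CPM in cKO sPre-B cells, with 3 of 6 higher. The 5 B lineage markers went from 2198 and 2117 to 1498 and 1498 CPM and from 4918 and 5638 to 3847 and 3451 CPM, with 2 of 5 lower at each stage. Without Cd79a they went from 1558 and 1575 to 1310.1 and 1338 CPM and from 3439 and 4036 to 3442 and 3126 CPM. The 3 proliferation markers went from 7145 and 7824 to 4832 and 5099.5 CPM in early LPre-B cells, and 0 of 3 passed the test (edgeR). The 6 myeloid markers went from 100.9 and 121 to 42.3 and 47.8 CPM and from 257 and 301 to 196 and 202 CPM, with 2 and 1 lower, most of it Itgam, and Elane and Mpo were at most 1.53 and 6.54 CPM in any library. The 4 erythroid markers summed to at most 20.6 CPM and the 5 T cell markers to at most 1.84 CPM in any library. Igha was high in the Ctrl replicate 1 libraries only, with 10.7 and 0.0256 CPM in Ctrl early LPre-B and 14.4 and 0.284 CPM in Ctrl sPre-B cells, and so was Jchain, of plasma cells, with 2.24 and 0.115 and 2.32 and 0.440 CPM. Both were singled out after their values were seen from 11 plasma cell markers. Of the others, Irf4 had 672 and 673 CPM in the early Ctrl libraries and Xbp1 58.4 and 45.7 CPM, and the whole list summed to 835 and 796 CPM in Ctrl and 539.8 and 582 CPM in cKO early LPre-B cells, and to 1221 and 1129 against 846 and 969 CPM in sPre-B cells. Without Irf4 the list summed to 163 and 123 against 145 and 125 CPM and to 196 and 145 against 326 and 237 CPM, and without both Irf4 and Ighg2b to 159 and 120.3 against 98.2 and 100.3 CPM and to 194 and 143 against 122 and 129 CPM, so that the direction in sPre-B cells depended on Ighg2b. Without the 2 Ctrl replicate 1 libraries, 76 of 109 segments tested were lower in cKO early LPre-B and 78 in cKO sPre-B cells. Ighg2b, a constant region of switched heavy chains, went the other way, from 1.96 and 2.60 CPM in Ctrl to 204 and 108 CPM in cKO sPre-B cells (Log2FC 6.10 ± 0.47, adjusted P = 6.24e-05). The part of these differences in the V segment levels was not tested.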

How the data were processed

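RNA of sorted early LPre-B and sPre-B cells was depleted of rRNA and made into directional, paired-end libraries. Per the labels and the study's methods, the authors trimmed reads with Trim Galore, aligned them with HISAT2 to mm10 without strand and counted them per gene with featureCounts; versions and the handling of reads with several matches are not given in the sources used here. The deposited values were raw counts of 27179 genes in 8 libraries, used as deposited, and 0 other columns were present.

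Symbols and positions came from RefSeq and GENCODE tables for GRCm38. V exons were aligned to that of Ighv1-72 with Biopython 1.88, and near copies had 95% identity or more. Promoters of Ighv segments were not analysed here. Counts were tested in R 4.3.3 with edgeR 4.0.16 (TMM, filterByExpr by group, glmQLFit and glmQLFTest, 1 mean per group over all 8 libraries, Benjamini-Hochberg over 17700 genes). The SE is the Log2FC divided by the root of F. CPM uses TMM-scaled library sizes, and a bound for a group at 0 uses 3 counts over that group. The fit was also run on simulated data, with an outcome not given here. Replicates are separate libraries per the labels, so P values measure the spread between them. Segments named are the 10 of the highest total count, the 5 largest rises and falls per comparison among segments that changed without overlap (50 or more counts in both libraries of whichever group was higher), the 2 at each end of the locus, and Ighv1-72 with its near copies. Others named were picked after their values were seen, the J segments and Ighv6 included. The segments, gene lists and classes were chosen with earlier results of these data known. Alternatives were DESeq2 1.42.0, the edgeR likelihood-ratio test, other scaling and filters, a replicate block, fewer libraries, and each library left out.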

Additional observations from a re-analysis of the deposited data

Results flagged for a closer look

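For 6 Ighv segments, and for 4 other genes named above, the difference between cKO and Ctrl was itself different at the 2 stages, by the edgeR test of the difference of differences over all 17700 genes. Calls were made for 6 of 111 segments, against 1.6% of all genes with a more negative and 2.64% with a less negative difference. The share of segments called was thus close to that of all genes. Each value is the Log2FC of cKO against Ctrl in sPre-B cells minus that in early LPre-B cells. The Log2FC was negative at both stages for all 6 segments. Each of the 6 calls was lost without some single library, with an adjusted P of up to 0.0947 for Ighv14-4, 0.0823 for Ighv1-82, 0.12 for Ighv1-47, 0.325 for Ighv1-26, 0.0898 for Ighv1-64 and 0.166 for Ighv10-1, and those of Ighv1-26 and Ighv10-1 also with a replicate block.

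The Log2FC was more negative in sPre-B cells for 4 segments. Ighv14-4, with 311 and 209 counts in Ctrl against 7 and 15 in cKO early LPre-B cells and 592 and 501 against 2 and 5 in sPre-B cells, gave -2.997 ± 0.52, adjusted P = 0.022. Ighv10-1, with 324 and 171 against 23 and 23 and 527 and 483 against 20 and 25 counts, gave -1.42 ± 0.32, adjusted P = 0.0479. Ighv1-82, with 806 and 483 against 10 and 19 and 881 and 450 against 1 and 0 counts, gave -4.87 ± 0.88, adjusted P = 0.0249. Ighv1-26 gave -5.87 ± 1.24, adjusted P = 0.0449, which depends on the prior count because both cKO sPre-B libraries held 0.

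The Log2FC was less negative in sPre-B cells for 2 segments. Ighv1-47, with 112 and 61 against 0 and 1 and 225 and 155 against 26 and 78 counts, gave 4.81 ± 0.94, adjusted P = 0.0298. Ighv1-64 gave 1.20 ± 0.22, adjusted P = 0.0253.

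Among the other genes, Rag1 gave a Log2FC of 1.68 ± 0.33, adjusted P = 0.0315, Rag2 a Log2FC of 0.89 ± 0.18, adjusted P = 0.0346 and Dntt a Log2FC of 2.59 ± 0.28, adjusted P = 0.00433, all 3 with a less negative Log2FC of cKO against Ctrl in sPre-B cells, where Rag2 did not pass the test. Ighg2b gave a Log2FC of 2.83 ± 0.56, adjusted P = 0.0319, with a larger rise in sPre-B cells.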

How the results depend on the processing

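The count of segments changed between cKO and Ctrl, 91 in early LPre-B and 86 in sPre-B cells, stayed within 1.5 times under each alternative run, at 76 to 96 and 78 to 90. The count for Ctrl sPre-B against early LPre-B cells, 66, was 43 to 72 with 1 library left out (43 without Ctrl early LPre-B replicate 2), 28 without the replicate 1 libraries of Ctrl and 26 without the replicate 2 libraries of Ctrl. For cKO sPre-B against early LPre-B cells it was 46, 34 to 44 with 1 library left out, and 25 with only the libraries compared, when 45 segments passed the filter in place of 111. The count of segments whose cKO effect differed between the stages, 6, was 14 with the likelihood-ratio test, 16 with DESeq2, 15 with no filter, 1 to 5 with 1 library left out, and 0 without the replicate 1 or the replicate 2 libraries of Ctrl (edgeR; 16 and 24 at an unadjusted P under 0.05). For these differences the cause was not tested. The alternatives that leave out the Ctrl libraries of 1 replicate number, and the 10 most counted segments, were added after the data were seen.

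The share of counts outside Ighv1-72 and its near copies in cKO, 50.6% and 56.9% of Ctrl at the 2 stages, was 60.9% and 68.3% with only Ighv1-72 left out, 7.90% and 13.4% with all of Ighv1 left out, 7.03% and 13.2% also without the 10 most counted segments, and 46.0% to 56.3% and 53.4% to 61.0% with 1 library left out. The sets of segments differ by construction, and the 10 most counted segments were nearly all kept ones.

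A replicate block in the model gave counts of 90, 86, 67, 44 and 5 in the order above, and the stage differences of Ighv1-26 and Ighv10-1 then had an adjusted P of 0.0555 and 0.0536. The numbers are given by the labels without saying that they mark an animal or day. The deviations of same-numbered libraries correlated over 17700 genes with r = 0.12 between cKO and Ctrl in early LPre-B cells, 0.00 in sPre-B cells, 0.51 between the stages in Ctrl and 0.37 in cKO. Over the 111 segments alone r was -0.24, 0.52, 0.48 and -0.71.

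Of 190 values of single segments in a comparison, 48 changed their side of the threshold in at least 1 alternative and 0 changed sign while called. Depth limits what can be said of segments with few Ctrl counts.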
